A study of Mus musculus with 7 samples.

Results

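The genes described here encode proteins of the citrate cycle, of fatty acid oxidation and of ketone use, together with 5 regulators of mitochondrial genes. Most of these proteins are enzymes of the mitochondrial matrix, but membrane proteins and the cytosolic Mdh1 are included. They were chosen from a list of 43 genes through the platform table of the array, taking for each gene its brightest probe set, which is the set of array probes that reports a transcript. A value was measured for 42 of the 43 listed genes, of 18193 genes in all. The gene without a value is Cpt1b, the muscle form of carnitine palmitoyltransferase, which the platform table pairs only with a probe set shared by several genes. The list was drawn up with the Hmga2 KO and wild type values of these samples in view. The differences between those groups are therefore a description of the listed genes and no test of them.

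The citrate cycle oxidises acetyl-CoA to carbon dioxide in the mitochondrial matrix and hands the electrons to the respiratory chain. Acetyl-CoA comes from pyruvate through the pyruvate dehydrogenase complex, from fatty acids through beta-oxidation, and from ketone bodies. Muscle precursor cells draw much of their energy from glycolysis, and mitochondrial enzymes become more abundant as they differentiate into fibres.

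RNA was measured on 7 Affymetrix mouse expression arrays, each hybridised with cRNA from the myoblasts, the precursors of muscle fibres, of C57BL/6 mice. The Hmga2 KO group (genotype HMGA2 -/-) held 4 samples, male in replicates 1 and 3 and female in replicates 2 and 4. The labels of Hmga2 KO replicate 2 give it 2 different animal numbers, so which animal it came from is uncertain, although both name a female of that genotype. The wild type group held 3 samples, all female, so sex is uneven between the groups. The labels name no treatment and do not state the age of the mice, the culture or how the Hmga2 allele was made. They call the samples biological replicates.

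Every array had a median intensity of 150, and the lowest value per array lay between 33.2 and 36.7. Hmga2, the deleted gene, had log2(intensity + 1) values of 6.44 to 6.72 in the Hmga2 KO arrays, against 13.29 to 13.64 in wild type samples. Actb, a cytoskeletal actin, averaged 14.53 in Hmga2 KO and 14.53 in wild type samples. RNA integrity was gauged by the 3' to 5' ratio of the Actb control probe sets, which was 1.64 to 1.74 in Hmga2 KO samples, against 1.61 and 1.62 in wild type replicates 3 and 1 and 1.94 in wild type replicate 2. The label was checked against markers. Myod1, the myogenic master regulator, had log2 values of 13.80 to 13.90 in Hmga2 KO samples and 13.85 to 13.94 in wild type samples, and Sdc4, a satellite cell proteoglycan, had 13.72 to 13.79 in Hmga2 KO samples and 13.69 to 13.88 in wild type samples. Terminal differentiation genes were bright as well, with Myog at 13.74 to 14.36 over the 7 samples and Mylpf at 12.93 to 14.18. The cultures therefore expressed markers of both myoblasts and differentiating muscle cells. Col3a1 of the fibroblast list, at 12.66 to 13.19, and Acta2 of the smooth muscle list, at 13.43 to 13.96, were bright too. All log2 values are log2(intensity + 1), and all differences are Hmga2 KO minus wild type on that scale unless a sex comparison is named. The number of arrays limits the precision of every value.

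Most of the mitochondrial oxidation genes had lower mean values in Hmga2 KO myoblasts. The difference was below 0 for 38 of the 42 genes, and for 12292 of all 18193 genes. The listed genes had a median of -0.29 and a range of -0.92 to 0.29. Over all 18193 genes the median difference was -0.07, so the listed genes lay at a median of -0.22 relative to all genes, and 35 of the 42 lay below the median of all genes. The 4 genes above 0 were Cpt1a, Nrf1, Tfam and Slc25a20. In limma's fit across all genes with Benjamini-Hochberg adjustment, 0 of the 42 passed an adjusted p of 0.05, against 5 genes or 0.0275% of all genes, and the smallest adjusted p was 0.0624, for Clybl. At an unadjusted p under 0.05 in the same fit, 19 of the 42 were lower, where the share over all genes was 10.3%, and 1 was higher, where the share over all genes was 2.99%. The 4 Hmga2 KO values all lay below the 3 wild type values for 9 genes, where 9.29% of all genes did so, and all above them for 0 genes, where 2.37% did so. Because the same contrast guided the choice of the genes, nothing is read from these counts. They also turned on single samples: the 19 became 8 without wild type replicate 3, 11 when Hmga2 KO replicate 1 was left out and 12 when Hmga2 KO replicate 3 was, and the 1 higher gene, Cpt1a, was lost without any of the wild type samples or without Hmga2 KO replicate 1 or 4. With quantile normalization between arrays, which forces the arrays onto one distribution, the shares of all genes at an unadjusted p under 0.05 became 5.08% lower and 5.45% higher, and 13 of the 42 were lower.

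**Figure D1:**
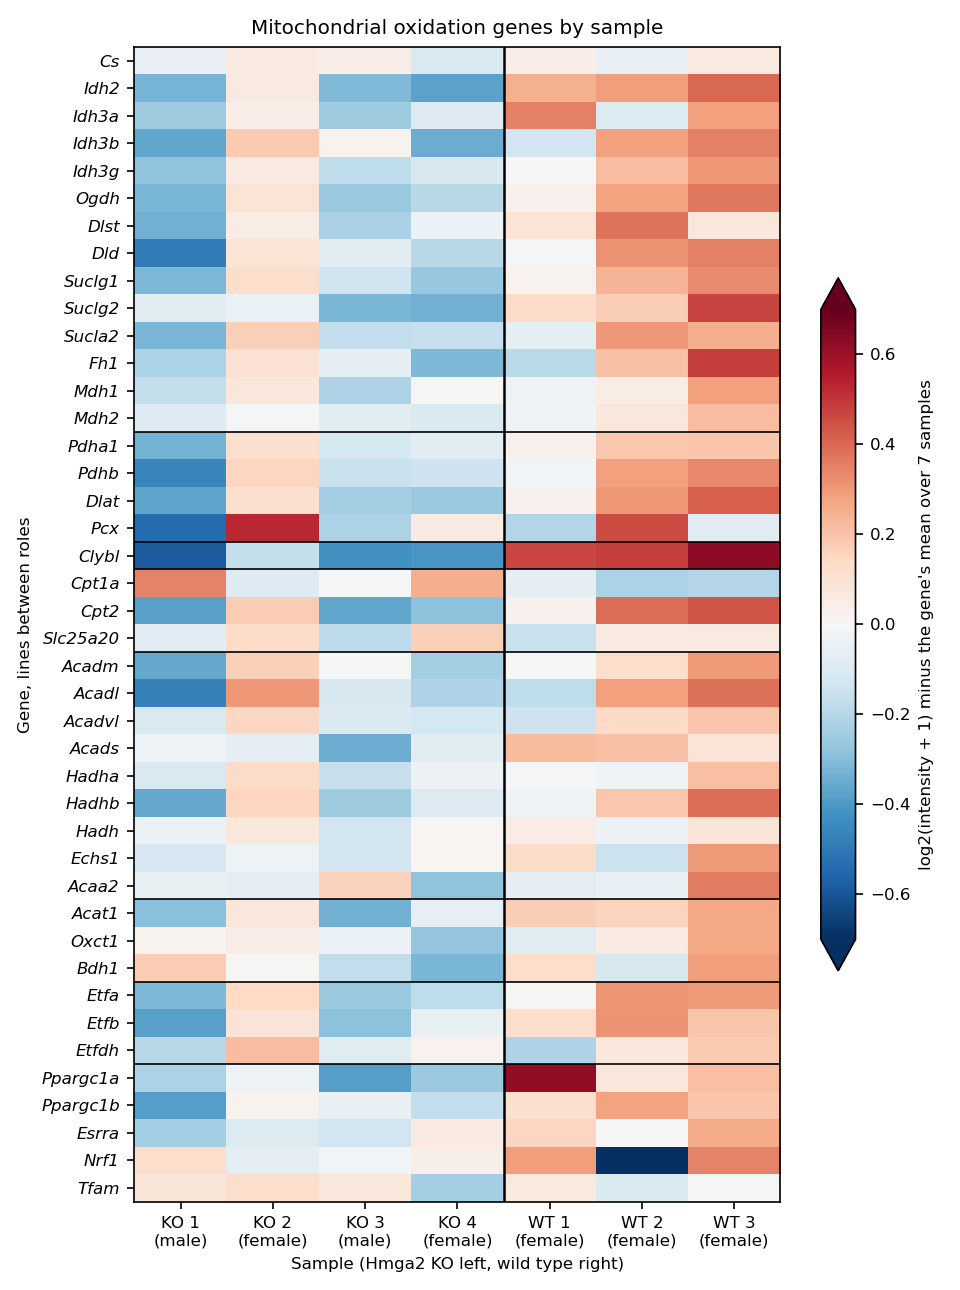
Heat map of the 42 measured genes (rows, in order of role, with lines between roles) in the 4 Hmga2 KO samples (left) and the 3 wild type samples (right); colour gives log2(intensity + 1) minus the gene's mean over the 7 samples. Hmga2 KO replicates 1, 3 and 4 are mostly below the gene means, whereas replicate 2 was the highest Hmga2 KO sample for 34 of the 42 genes.

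The 7 samples did not stand in 2 even blocks. Hmga2 KO replicates 1, 3 and 4 lay below all wild type values for 31, 30 and 31 of the 42 genes. Hmga2 KO replicate 2, a female sample, did so for 10 genes only and lay within or above the wild type range for the other 32. This is the sample whose labels disagree on the animal. Hmga2 KO replicate 2 also had the highest Actb and Gapdh 3' to 5' ratios of its group, and the part of RNA integrity in its values was not tested. Without Hmga2 KO replicate 2 the median of the 42 genes relative to all genes was -0.28 in place of -0.22. In limma's fit 24 in place of 19 were then lower at an unadjusted p under 0.05. Among wild type samples, replicate 3 was the highest for 31 genes and replicate 1 the lowest for 28. Averaged over the 42 genes, relative to each gene's mean over the 7 samples, the level was -0.22, 0.08, -0.16 and -0.14 in Hmga2 KO replicates 1 to 4, against 0.05, 0.13 and 0.26 in wild type replicates 1 to 3. By this average the Hmga2 KO and wild type samples overlapped, through Hmga2 KO replicate 2 and wild type replicate 1. The 42 genes come from the same 7 arrays and are not replicates of each other.

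Clybl had the largest difference of the list. It encodes a mitochondrial enzyme that cleaves citramalyl-CoA, a product of itaconate breakdown, and its loss in humans is tied to low vitamin B12. The RefSeq window around its start site is shown because this gene stood farthest from the others; it runs from 250 bases before the start site to 50 bases after it, at chr14:122181444-122181743 on the plus strand of GRCm38.p6, and the capitals mark the letters AAGATGGCG, the YY1 motif, 30 bases after the start site.
Clybl: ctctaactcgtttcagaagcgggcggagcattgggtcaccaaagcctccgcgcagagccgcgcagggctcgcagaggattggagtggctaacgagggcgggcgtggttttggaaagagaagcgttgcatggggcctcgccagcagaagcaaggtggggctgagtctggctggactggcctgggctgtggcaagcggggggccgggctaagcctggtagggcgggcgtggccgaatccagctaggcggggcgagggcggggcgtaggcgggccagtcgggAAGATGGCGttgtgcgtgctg
The intensity of Clybl was 272, 363, 304 and 306 in Hmga2 KO replicates 1 to 4, against 563, 569 and 630.1 in wild type replicates 1 to 3. The groups did not overlap, and the highest Hmga2 KO value was that of female replicate 2. The difference was -0.92 (SE 0.11), a ratio of Hmga2 KO to wild type of 0.528. It was -0.81 for the female Hmga2 KO samples and -1.03 for the male ones, each against the same female wild type samples. The array holds 1 probe set for Clybl, so no other probe set bears on this value. Without wild type replicate 3 the adjusted p of limma's fit was 0.405, and without Hmga2 KO replicate 2 it was 0.0339.

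**Figure D2:**
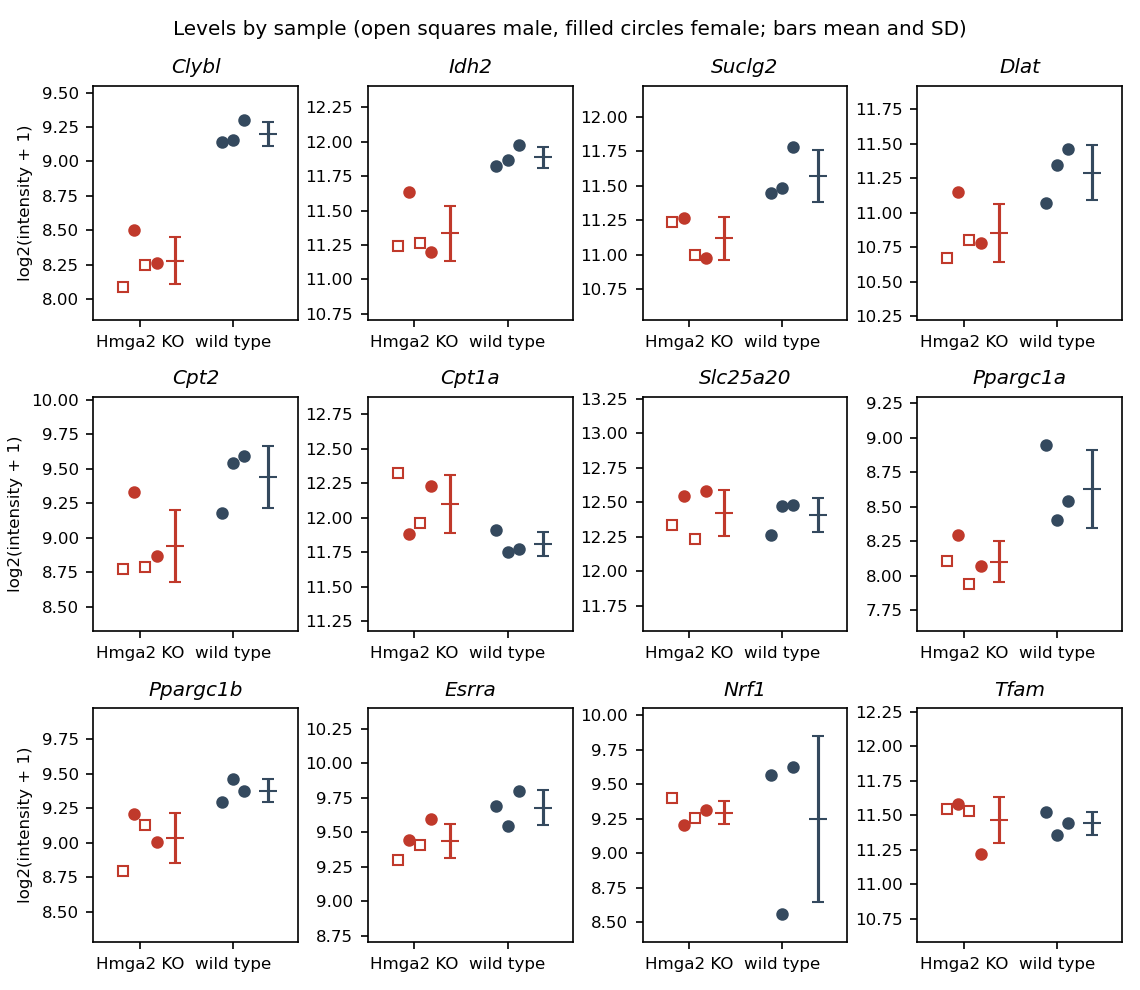
log2(intensity + 1) of 12 genes in single samples (vertical axis, each panel spanning the same range), with Hmga2 KO to the left of wild type; open squares are male and filled circles female samples, and bars give the mean and SD of the 4 Hmga2 KO and 3 wild type samples. Clybl shows the widest gap between the groups, Cpt1a is higher in Hmga2 KO on average with overlapping groups, and the wild type SD of Nrf1 comes from 1 low sample.

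The pyruvate dehydrogenase complex makes acetyl-CoA from pyruvate, and its 3 listed subunits had lower means in Hmga2 KO samples, with 0 past an adjusted p of 0.05 in limma's fit. The difference was -0.24 (SE 0.12) for Pdha1 and -0.35 (SE 0.15) for Pdhb, the subunits of its first enzyme, and -0.44 (SE 0.14) for Dlat, its acetyltransferase core. For Dlat the intensities ran over 1632 to 2275 in Hmga2 KO samples and 2146 to 2817 in wild type samples. The groups overlapped for all 3, in each case through Hmga2 KO replicate 2 and wild type replicate 1. Pcx, which carboxylates pyruvate to oxaloacetate, had intensities of 108, 227, 135 and 163 in Hmga2 KO replicates 1 to 4, against 136, 216 and 148 in wild type replicates 1 to 3, a difference of -0.10 (SE 0.25). Replicate 2 of both genotypes was the highest, and the 3' to 5' ratio of the Pcx control probe sets was also highest there, at 1.69 in Hmga2 KO replicate 2 and 1.97 in wild type replicate 2, with 0.824 to 1.24 in the other 5 samples. These control probe sets report the same transcript, however. The 3' one had log2 values of 7.86 in Hmga2 KO replicate 2 and 7.85 in wild type replicate 2. The 5' one lay at 6.87 to 7.10 in all samples. The ratio is therefore no gauge of RNA integrity separate from the Pcx signal, and the part of RNA integrity in the Pcx values was not tested.

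The citrate cycle group of 14 enzymes also held the cytosolic Mdh1 and the NADP-dependent Idh2. Of the 14, 13 lay below the median of all genes, with a median difference of -0.31. At an unadjusted p under 0.05 in limma's fit, 8 were lower, against 10.3% of all genes. Idh2, the NADP-dependent isocitrate dehydrogenase of the matrix, had an intensity of 2427, 3174, 2458 and 2346 in Hmga2 KO replicates 1 to 4, against 3620.1, 3729.8 and 4016 in wild type replicates 1 to 3. The groups did not overlap, and the difference was -0.55 (SE 0.12), although a second and dimmer Idh2 probe set gave 0.11 and the mean of both -0.22. Suclg2, the GTP-specific subunit of succinyl-CoA ligase, had 2015 to 2469 in Hmga2 KO samples and 2791 to 3527 in wild type samples, and its 2 probe sets gave differences of -0.45 and -0.44. Its partner Suclg1, which is shared by both forms of the ligase, gave -0.34 (SE 0.13), and Sucla2, the ATP-specific subunit, -0.28 (SE 0.14). The groups overlapped for Suclg1 and Sucla2 and not for Suclg2, but the 3 differences lay within each other's errors, and whether they differ was not tested.

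The 3 subunits of the 2-oxoglutarate dehydrogenase complex also had lower means, with 0 past an adjusted p of 0.05 in limma's fit. Dlst, its succinyltransferase core, had 3892 to 5088 in Hmga2 KO samples and 5196 to 6389.8 in wild type samples, without overlap and with a difference of -0.32 (SE 0.13). One dimmer Dlst probe set of 4 gave 0.16, in the other direction, and the mean over the 4 was -0.12. Ogdh, the first enzyme of the complex, differed by -0.40 (SE 0.13), and Dld, the dihydrolipoyl dehydrogenase that this complex shares with pyruvate dehydrogenase, by -0.38 (SE 0.15). The 3 subunits of the NAD-dependent isocitrate dehydrogenase lay close together, at -0.32 for Idh3a, -0.30 for Idh3b and -0.30 for Idh3g. Fh1, fumarase, differed by -0.29 (SE 0.17), and the malate dehydrogenases by -0.17 (SE 0.12) for the cytosolic Mdh1 and -0.16 (SE 0.09) for the mitochondrial Mdh2. Cs, citrate synthase, the enzyme that starts the cycle and a common gauge of mitochondrial content, had intensities of 10769 to 12144 in Hmga2 KO samples and 11165 to 12130.3 in wild type samples. Its 3 probe sets gave -0.03, 0.03 and 0.01, so Cs was the 1 enzyme of the citrate cycle group not below the median of all genes.

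**Figure D3:**
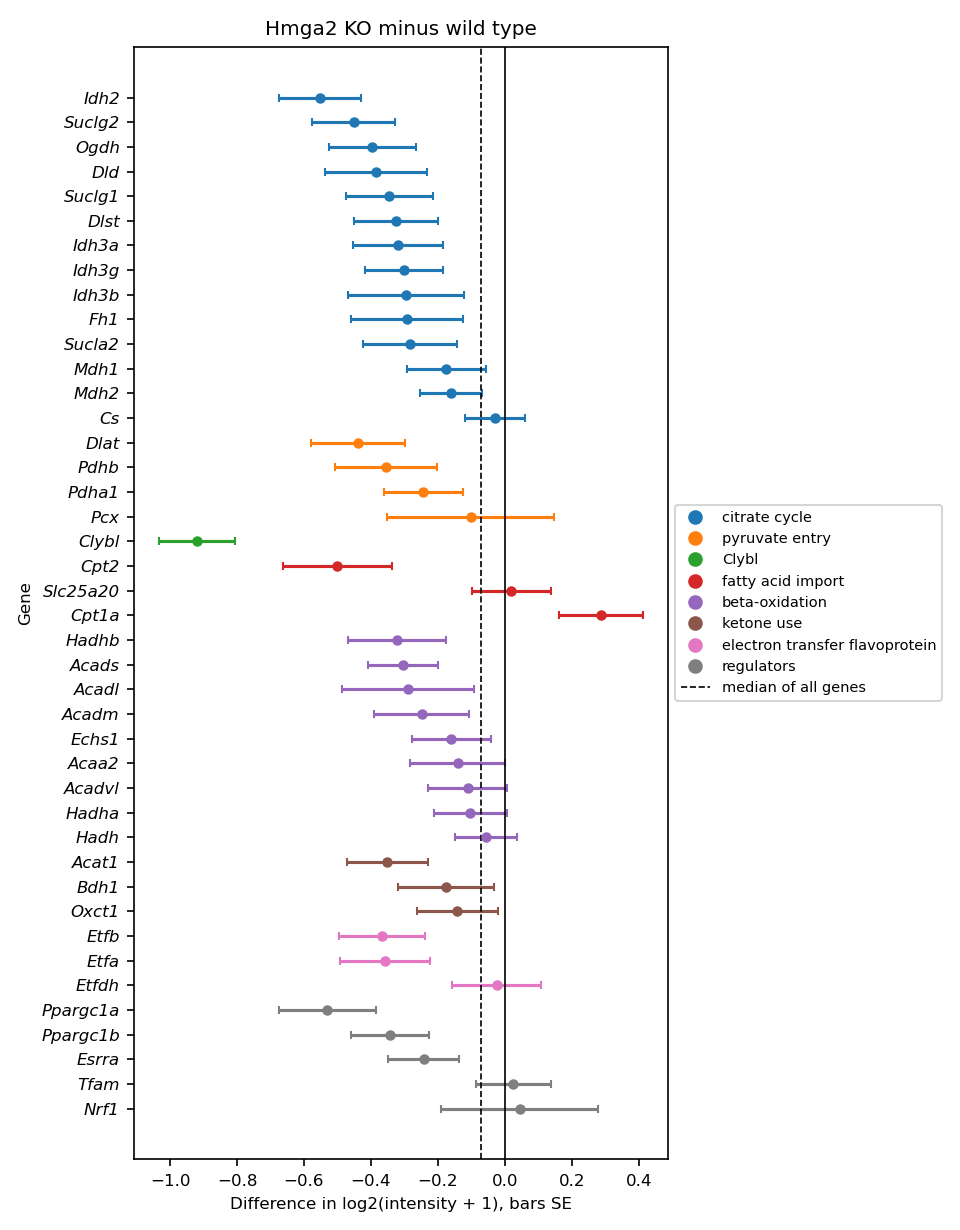
Hmga2 KO minus wild type difference in log2(intensity + 1) for the 42 genes (points, horizontal axis, bars SE of limma's fit), coloured and ordered by role; the solid line is 0 and the dashed line the median of all genes, -0.07. Clybl stands apart at -0.92, 13 of the 14 enzymes of the citrate cycle group lie between -0.16 and -0.55, and Cpt1a lies at 0.29.

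The carnitine shuttle, which carries fatty acyl groups into the matrix, was mixed. Cpt1a, the outer membrane carnitine palmitoyltransferase and the regulated entry step, is shown with its RefSeq start site window because it was the gene highest above wild type; the window lies at chr19:3323051-3323350 on the plus strand of GRCm38.p6, and it holds none of the motifs searched, so no letters are in capitals.
Cpt1a: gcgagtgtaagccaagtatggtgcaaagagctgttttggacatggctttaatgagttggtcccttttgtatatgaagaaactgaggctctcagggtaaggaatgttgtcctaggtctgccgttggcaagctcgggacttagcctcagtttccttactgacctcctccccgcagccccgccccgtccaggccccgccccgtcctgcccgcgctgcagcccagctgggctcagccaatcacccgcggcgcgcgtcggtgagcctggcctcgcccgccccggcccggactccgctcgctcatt
The intensity of Cpt1a was 5127, 3776, 3982 and 4804 in Hmga2 KO replicates 1 to 4, against 3849, 3450.2 and 3491 in wild type replicates 1 to 3. Hmga2 KO replicate 2 lay below wild type replicate 1, so the groups overlapped. The difference was 0.29 (SE 0.13), with an adjusted p of 0.374 in limma's fit, and the 3 probe sets gave 0.29, 0.30 and 0.29. Cpt2, the inner membrane carnitine palmitoyltransferase that completes the transfer, went the other way: its intensity was 436 to 643 in Hmga2 KO samples and 579.9 to 772 in wild type samples, a difference of -0.50 (SE 0.16). Only Hmga2 KO replicate 2 reached the wild type range for Cpt2. Slc25a20, the carnitine-acylcarnitine carrier between the 2 transferases, had 4818 to 6125 in Hmga2 KO samples and 4907 to 5702 in wild type samples. Its difference was 0.02 (SE 0.12), and a dimmer Slc25a20 probe set gave -0.10.

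Among the 9 enzymes of beta-oxidation the median difference was -0.16, and 8 lay below the median of all genes. The acyl-CoA dehydrogenases take the first step, each for fatty acids of another length. Acads, for short chains, had intensities of 321 to 399 in Hmga2 KO samples and 436 to 478 in wild type samples, without overlap and with a difference of -0.30 (SE 0.11). Acadl, for long chains, and Acadm, for medium chains, differed by -0.29 (SE 0.20) and -0.25 (SE 0.14), and Acadvl, for very long chains, by -0.11 (SE 0.12); the groups overlapped for all 3. Echs1, the short-chain enoyl-CoA hydratase of the second step, differed by -0.16 (SE 0.12), Hadh, the dehydrogenase of the third, by -0.06 (SE 0.09), and Acaa2, the thiolase of the last, by -0.14 (SE 0.14).

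Hadha and Hadhb, the subunits of the trifunctional protein that carries long chains through the later steps, are transcribed away from each other on chromosome 5. Their RefSeq start sites in GRCm38.p6 lie 273 bases apart, at 30154980 for Hadha on the minus strand and 30155253 for Hadhb on the plus strand, and their windows share 228 bases. The Hadhb window at chr5:30155003-30155302, plus strand, is printed because it holds this shared stretch; it holds none of the motifs searched.
Hadhb: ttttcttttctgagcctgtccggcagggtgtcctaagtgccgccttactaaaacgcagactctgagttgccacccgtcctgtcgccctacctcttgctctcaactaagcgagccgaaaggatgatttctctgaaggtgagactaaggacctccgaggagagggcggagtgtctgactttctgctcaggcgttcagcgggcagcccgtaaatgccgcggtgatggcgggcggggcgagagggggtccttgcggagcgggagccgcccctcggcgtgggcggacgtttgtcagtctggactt
Hadhb had intensities of 2817 to 4017 in Hmga2 KO samples and 3544 to 4746 in wild type samples, a difference of -0.32 (SE 0.15). Hadha had 703 to 862 in Hmga2 KO samples and 771 to 912 in wild type samples, a difference of -0.10 (SE 0.11), which became 0.03 with quantile normalization. The groups overlapped for both, and whether the differences of the 2 genes differ from each other was not tested.

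Acat1, the mitochondrial thiolase that splits acetoacetyl-CoA, was the ketone-handling gene without overlap on its brightest probe set. Its intensity there was 4124 to 5511 in Hmga2 KO samples and 5804 to 6277 in wild type samples, a difference of -0.35 (SE 0.12). The other Acat1 probe sets gave -0.51 and -0.48, and on both the groups overlapped. Oxct1, the transferase that activates acetoacetate in tissues that burn ketones, differed by -0.14 (SE 0.12). Bdh1, which interconverts the 2 main ketone bodies, was the 1 listed gene dimmer than the array median, with 64 to 91 in Hmga2 KO samples and 74 to 99 in wild type samples. Its difference was -0.18 (SE 0.14), and a second Bdh1 probe set gave 0.04, so its direction is not settled.

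The electron transfer flavoprotein collects electrons from the acyl-CoA dehydrogenases. Its subunits Etfa and Etfb differed by -0.36 (SE 0.13) and -0.37 (SE 0.13). Etfb had intensities of 1881 to 2612 in Hmga2 KO samples and 2667 to 3054 in wild type samples, without overlap, whereas the groups overlapped for Etfa. Etfdh, the membrane enzyme that passes these electrons to ubiquinone, had 2118 to 2817 in Hmga2 KO samples and 2089.8 to 2756 in wild type samples, a difference of -0.02 (SE 0.13).

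Among the regulators, Ppargc1a, Ppargc1b and Esrra had lower means in Hmga2 KO samples. For Nrf1 and Tfam the sign of the difference varied between probe sets. Ppargc1a encodes PGC-1alpha, a coactivator that raises mitochondrial biogenesis and oxidative metabolism in muscle. Its RefSeq window, at chr5:51567676-51567975 on the minus strand of GRCm38.p6, is shown because this regulator had the largest difference of the 5; none of the motifs searched lies in it.
Ppargc1a: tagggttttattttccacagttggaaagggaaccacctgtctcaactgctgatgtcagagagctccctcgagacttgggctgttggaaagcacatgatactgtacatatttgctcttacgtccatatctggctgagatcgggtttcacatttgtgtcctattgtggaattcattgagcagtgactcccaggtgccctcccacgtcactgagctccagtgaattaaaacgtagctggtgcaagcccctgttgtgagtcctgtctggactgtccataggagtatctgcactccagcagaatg
The intensity of Ppargc1a was 274, 313, 245 and 267 in Hmga2 KO replicates 1 to 4, against 493, 338 and 371 in wild type replicates 1 to 3. Every Hmga2 KO value, that of replicate 2 included, lay below every wild type value, and the difference was -0.53 (SE 0.14), a ratio of 0.693. The array holds 5 probe sets for this gene, with differences of -0.53, -0.56, -0.57, -0.51 and -0.41, and the groups did not overlap on any of them. Probe sets of 1 gene share the same RNA and are not replicates.

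Ppargc1b, the related coactivator PGC-1beta, had intensities of 442, 589, 559 and 514 in Hmga2 KO replicates 1 to 4, against 626, 703 and 662 in wild type replicates 1 to 3. The groups did not overlap, and the difference was -0.34 (SE 0.12). Esrra, the estrogen-related receptor alpha through which both coactivators act on genes of oxidation, had 628, 697, 679.6 and 774 in Hmga2 KO replicates 1 to 4, against 827, 747 and 891 in wild type replicates 1 to 3. For Esrra the groups overlapped through Hmga2 KO replicate 4, and the difference was -0.24 (SE 0.11).

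Nrf1, nuclear respiratory factor 1, a transcription factor of respiratory genes, had intensities of 673, 588, 609 and 636 in Hmga2 KO replicates 1 to 4, against 757, 375 and 788 in wild type replicates 1 to 3. One wild type sample, replicate 2, was the lowest of all 7 and set the mean: the difference was 0.04 (SE 0.23) with that sample and -0.30 without it. A dimmer Nrf1 probe set gave -0.22 with groups that did not overlap, and another 2 gave -0.13 and 0.12. Wild type replicate 2 was also the sample with the highest Actb 3' to 5' ratio, and the part of RNA integrity in this value was not tested. Tfam, the factor that packages and transcribes mitochondrial DNA, had 2981, 3058, 2960.1 and 2384 in Hmga2 KO replicates 1 to 4, against 2946, 2623 and 2790.3 in wild type replicates 1 to 3. Its groups overlapped, with a difference of 0.03 (SE 0.11) on this probe set and -0.18 on the other one.

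Across the whole list the array held 95 probe sets, with several for 30 genes and 1 for 12. Of the 53 probe sets other than the brightest, 42 had the same sign of difference as the brightest of their gene. Of the 40 that were above the array median, 31 did so. The genes with probe sets of both signs included Cs, Idh2, Dlst, Slc25a20, Hadhb, Acaa2, Bdh1, Nrf1 and Tfam.

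Of the 42 measured genes, 38 were matched in the RefSeq table of start site windows, and Acaa2, Acat1, Idh3a and Ppargc1b were not. The windows were searched on both strands for motifs of factors known to act on mitochondrial genes, and every share over genes refers to windows of the same 300 bases for 14452 measured genes. The motif of nuclear respiratory factor 1, GCGCANGCG, lay in 7 of the 38 genes (18.4%), against 11.4% of all genes. It is close to its own reverse complement, so matches on both strands can overlap, as in Etfdh. The 7 stretches are shown because this motif lay in more of the 38 genes than any other searched. Each has 20 bases on both sides where the window reaches that far, with the match in capitals.
Etfb, chr7:43444041-43444089, plus strand: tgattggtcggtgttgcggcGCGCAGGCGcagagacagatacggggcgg
Sucla2, chr14:73552750-73552798, plus strand: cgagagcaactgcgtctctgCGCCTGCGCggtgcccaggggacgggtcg
Ogdh, chr11:6292523-6292571, plus strand: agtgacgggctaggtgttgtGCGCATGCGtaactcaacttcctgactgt
Acadm, chr3:153944774-153944822, minus strand: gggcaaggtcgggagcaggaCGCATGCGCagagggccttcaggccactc
Esrra, chr19:6921921-6921969, minus strand: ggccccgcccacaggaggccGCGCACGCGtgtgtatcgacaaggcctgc
Dld, chr12:31351422-31351452, minus strand: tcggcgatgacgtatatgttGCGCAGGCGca
Etfdh, chr3:79628867-79628915, minus strand: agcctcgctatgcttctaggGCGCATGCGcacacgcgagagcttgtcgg
The expression differences of these genes ran from -0.40 for Ogdh to -0.24 for Esrra, apart from Etfdh at -0.02.

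The ETS motif CCGGAAG, the core bound by GABPA (also called nuclear respiratory factor 2), lay in 6 of the 38 genes (15.8%), against 15.0% of all genes. The genes were Cpt2, Dlst, Idh3b, Idh3g, Slc25a20 and Tfam. The gene with the lowest difference and the 2 with the highest are shown, with the match in capitals.
Cpt2, chr4:107923576-107923622, minus strand: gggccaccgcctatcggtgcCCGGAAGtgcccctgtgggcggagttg
Slc25a20, chr9:108662037-108662083, plus strand: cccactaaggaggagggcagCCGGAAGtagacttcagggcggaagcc
Tfam, chr10:71238065-71238111, minus strand: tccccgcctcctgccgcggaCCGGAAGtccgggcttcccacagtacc
Cpt2 differed by -0.50, Slc25a20 by 0.02 and Tfam by 0.03. The YY1 motif AAGATGGCG lay in Clybl and Idh3g (5.26% of 38 genes, against 2.53% of all), and the cyclic AMP response element TGACGTCA in Mdh2 and Ogdh (5.26%, against 2.92%). The estrogen-related receptor motif TCAAGGTCA and a direct repeat of AGGTCA, which shares letters with it, with 1 base between the copies, lay in 0 of the 38 genes, against 0.401% and 0.0484% of all genes. A match is a description of the letters, and its absence says only that these letters are not in this window. The median GC content of the genes' 46 windows was 60.5%, against 58.3% over the windows of all measured genes.

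Further genes of the same pathways were read from the same fit, in lists drawn up with earlier results of these data known. Of each list the 3 genes with the smallest p are named, and 0 genes of any of these lists passed an adjusted p of 0.05 in limma's fit. Among 29 measured genes of the citrate cycle and pyruvate handling outside the main list, 20 lay below the median of all genes, and 11 were lower and 1 higher at an unadjusted p under 0.05, against 10.3% and 2.99% of all genes. Pdk1 and Pdk4 are kinases that switch pyruvate dehydrogenase off, and Pdp1 is the phosphatase that switches it on again. Pdk4 averaged 13.63 ± 0.09 in Hmga2 KO samples (SD, n = 4) and 13.26 ± 0.02 in wild type samples (SD, n = 3), a difference of 0.37 (SE 0.09) with groups that did not overlap. Pdk1 averaged 10.62 ± 0.14 in Hmga2 KO samples and 11.26 ± 0.29 in wild type samples, a difference of -0.63 (SE 0.15), also without overlap. Pdp1 differed by -0.55 (SE 0.16). The kinases of the same enzyme therefore had means on opposite sides of wild type.

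Among 32 other genes of fatty acid oxidation, 23 lay below the median of all genes and 6 were lower at an unadjusted p under 0.05, against 10.3% of all genes. Fabp3, the fatty acid binding protein of muscle, averaged 10.19 ± 0.54 in Hmga2 KO samples (SD, n = 4) and 11.45 ± 0.16 in wild type samples (SD, n = 3), a difference of -1.26 (SE 0.26). Acsl6, which activates long-chain fatty acids, differed by -1.18 (SE 0.27), and Acaca, the acetyl-CoA carboxylase whose product restrains the shuttle, by -0.32 (SE 0.09). The groups did not overlap for any of these 3. Among 6 other genes of ketone bodies, 1 was lower at an unadjusted p under 0.05 (10.3% of all genes were), the monocarboxylate carrier family member Slc16a6, at -0.34 (SE 0.09), with Aacs, acetoacetyl-CoA synthetase, at -0.17 (SE 0.09) and Bdh2 at -0.23 (SE 0.15).

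The pyruvate and 2-oxoglutarate dehydrogenase complexes carry lipoic acid, and its synthesis needs iron-sulfur clusters. Of 13 genes that supply these cofactors, 12 lay below the median of all genes and 6 were lower at an unadjusted p under 0.05 (10.3% of all genes were), with Glrx5 at -0.28 (SE 0.09), Lipt1 at -0.40 (SE 0.13) and Bola3 at -0.42 (SE 0.15). Glrx5 and Bola3 serve iron-sulfur cluster assembly, and Lipt1 transfers lipoic acid to the complexes. A list of propionate and vitamin B12 genes also held genes of other pathways, among them leucine breakdown (Auh, Ivd, Mccc1 and Mccc2) and malonate activation (Acsf3). Of its 15 measured genes, 12 lay below the median of all genes. At an unadjusted p under 0.05 in limma's fit, 5 were lower, against 10.3% of all genes. Acsf3, which activates malonate in mitochondria, differed by -0.45 (SE 0.10), Auh, an enzyme of leucine breakdown, by -0.35 (SE 0.12), and Mmab, which makes the adenosyl form of vitamin B12, by -0.32 (SE 0.12).

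Of 28 other regulators of mitochondrial genes, 17 lay below the median of all genes, and 3 were lower and 1 higher at an unadjusted p under 0.05, shares near the 10.3% and 2.99% of all genes. Esrrg, the estrogen-related receptor gamma, averaged 8.03 ± 0.62 in Hmga2 KO samples (SD, n = 4) and 9.35 ± 0.31 in wild type samples (SD, n = 3), a difference of -1.32 (SE 0.305). Its 4 Hmga2 KO values were 7.18, 8.55, 8.01 and 8.40, all below the lowest wild type value of 9.16. Prkaa2, a catalytic subunit of the energy sensor AMPK, averaged 8.87 ± 0.55 in Hmga2 KO samples and 9.77 ± 0.03 in wild type samples, a difference of -0.90 (SE 0.25). Pprc1, the PGC-1 related coactivator, differed by -0.38 (SE 0.12). Ppargc1a, Ppargc1b and Pprc1 of the PGC-1 family and the receptors Esrra and Esrrg had lower means in Hmga2 KO samples, at -0.24 to -1.32. They were grouped after their values were seen, and 0 of them passed the adjusted test. Esrrg and Pprc1 were named for their small p, and Esrrb, another receptor of that list, is not described here. Of the 28 regulators, 11 lay above the median of all genes, with differences up to 0.40.

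Markers of muscle differentiation were also lower in Hmga2 KO samples on average. Of 29 terminal differentiation markers, 28 lay below the median of all genes in Hmga2 KO samples and 13 were lower at an unadjusted p under 0.05 (10.3% of all genes were), with a median difference of -0.62. Relative to each gene's mean over the 7 samples they averaged -0.93, 0.27, -0.31 and -0.10 in Hmga2 KO replicates 1 to 4, against 0.10, 0.64 and 0.33 in wild type replicates 1 to 3. Their brightest members were Myog, which starts differentiation, at 13.74 to 14.26 in Hmga2 KO samples and 14.11 to 14.36 in wild type samples, and Mylpf, a fast myosin light chain, at 12.93 to 13.99, against 13.81 to 14.18. The summed intensity of the 29 markers was 76437 to 160445 in Hmga2 KO samples and 140673 to 196695 in wild type samples, and as in the oxidation genes Hmga2 KO replicate 1 was lowest and Hmga2 KO replicate 2 the highest of its group. Their part in the oxidation gene result was not tested. In these bulk samples, fewer cells of a type and less RNA per cell cannot be told apart.

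Markers of fibroblasts and fibro-adipogenic cells ran the other way in part. Of 16 measured markers, 13 lay above the median of all genes, and 4 were higher at an unadjusted p under 0.05 (2.99% of all genes were). Their summed intensity was 18827 to 22910 in Hmga2 KO samples and 16554 to 17633 in wild type samples. Relative to each gene's mean over the 7 samples they averaged 0.53, -0.13, 0.09 and -0.07 in Hmga2 KO replicates 1 to 4. The wild type averages were 0.06, -0.31 and -0.17 in replicates 1 to 3, so by this average the groups overlapped. Their brightest genes were Col3a1, a collagen, at 12.83 to 13.19 in Hmga2 KO samples and 12.66 to 13.05 in wild type samples, and Mgp, a matrix protein, at 11.97 to 12.34 in Hmga2 KO samples and 11.29 to 11.51 in wild type samples, without overlap. Their part in the oxidation gene result was not tested. Markers of other cells averaged below the array median of 150 per gene: the 9 macrophage markers summed to 806 to 853 in Hmga2 KO samples and 799 to 898 in wild type samples (brightest Tyrobp and Csf1r), the 8 endothelial markers to 581 to 614, against 641 to 661 (brightest Cdh5 and Cldn5), and the 7 adipocyte markers to 519 to 585, against 499 to 643 (brightest Ucp1 and Fabp4). The 9 smooth muscle markers, which include the muscle genes Des and Acta2 as the brightest, summed to 23417 to 32222 in Hmga2 KO samples and 22122 to 31495 in wild type samples. The 12 myoblast markers had a median difference of -0.13, with 2 lower at an unadjusted p under 0.05, against 10.3% of all genes.

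**Figure D4:**
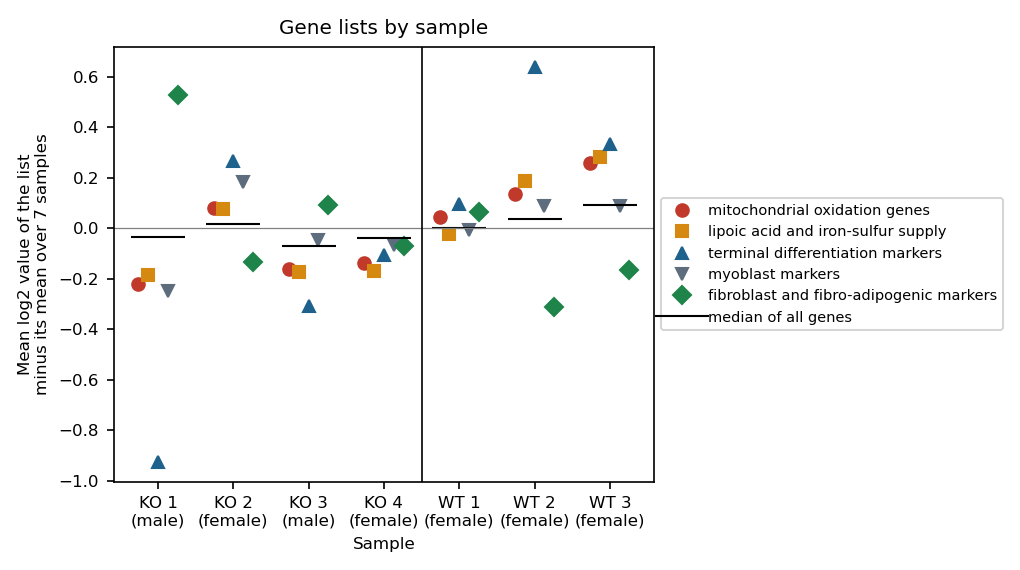
Mean log2 value of each gene list minus its mean over the 7 samples (vertical axis) in the 4 Hmga2 KO samples (left) and the 3 wild type samples (right); black bars give the median of all genes. The terminal differentiation markers run from -0.93 in Hmga2 KO replicate 1 to 0.64 in wild type replicate 2, and the oxidation genes, from -0.22 to 0.26, are lowest and highest in their Hmga2 KO group in the same 2 samples, replicates 1 and 2.

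Sex was not used in choosing the genes, and the Hmga2 KO group holds both sexes, so its 2 male samples were set against its 2 female samples, in a fit of 3 groups over all 7 samples. Male Hmga2 KO samples had lower means than female ones for 35 of the 42 genes, and for 11029 of all 18193 genes. The median difference of the 42 genes, male minus female, was -0.17, or -0.13 relative to the median of all genes. In limma's fit 0 of the 42 passed an adjusted p of 0.05, against 7 genes or 0.0385% of all genes, and the smallest adjusted p was 0.671. At an unadjusted p under 0.05, 3 were lower in males, Pcx, Acat1 and Etfb, where the share over all genes was 3.65%, and 0 were higher. Pcx differed by -0.67 (SE 0.25), Etfb by -0.35 (SE 0.13) and Acat1 by -0.33 (SE 0.12). Among the terminal differentiation markers 28 of 29 had lower means in the male samples, and 20 were lower at an unadjusted p under 0.05 (3.65% of all genes were), with a median of -0.69 and 0 past the adjusted test. Without Hmga2 KO replicate 2, the median of the oxidation genes relative to all genes was -0.07, with 28 of 42 lower in males. Without Hmga2 KO replicate 1 it was -0.10 with 34 lower. Without Hmga2 KO replicate 3 it was -0.21 with 34 lower, and without Hmga2 KO replicate 4 it was -0.22 with 39 lower.

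**Figure D5:**
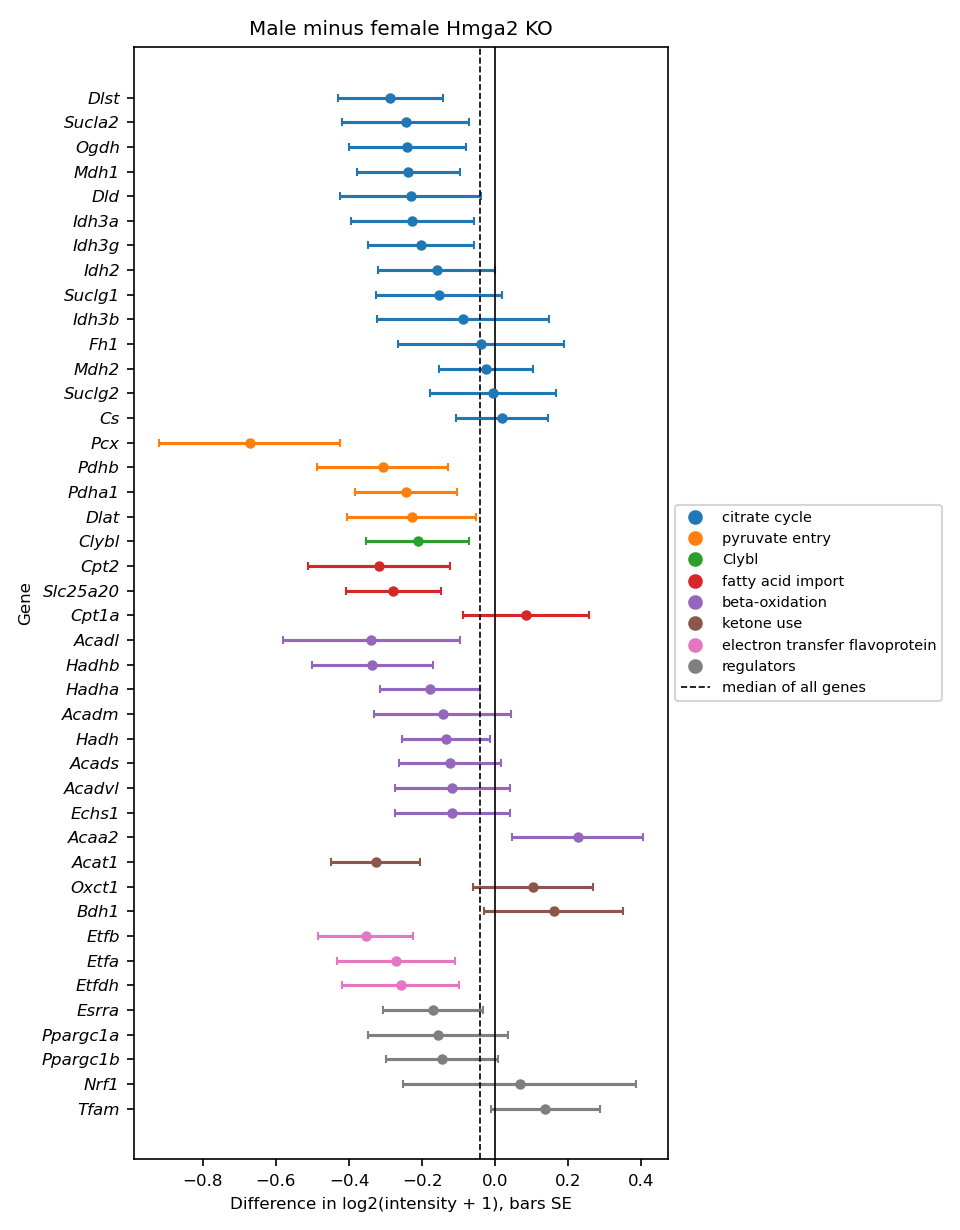
Male minus female Hmga2 KO difference in log2(intensity + 1) for the 42 genes (points, horizontal axis, bars SE of limma's fit of 3 groups), coloured and ordered by role; the solid line is 0 and the dashed line the median of all genes, -0.04. Of the 42 points 35 lie below 0, and the lowest, Pcx, lies at -0.67.

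Because all wild type samples were female, the genotype difference was also read among females alone, in 2 Hmga2 KO and 3 wild type samples. The median of the 42 genes relative to all genes was then -0.14, with 32 genes below the median of all genes and 4 lower at an unadjusted p under 0.05, where 4.64% of all genes were lower, against 19 and 10.3% with all samples. In females alone the difference was -0.81 for Clybl, -0.47 for Idh2, -0.45 for Suclg2 and -0.45 for Ppargc1a. For Acat1 it was -0.19, for Etfb -0.19 and for Dlst -0.18, with -0.35, -0.37 and -0.32 when males were included. Male minus female Hmga2 KO differences were -0.33 for Acat1, -0.35 for Etfb and -0.29 for Dlst. Whether the genotype difference itself depends on sex cannot be tested without male wild type samples.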

How the data were processed

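RNA of 7 myoblast samples was measured on Affymetrix arrays, and the authors deposited linear intensities of 45101 probe sets for each sample. The sources used here do not give the summarization, the background correction or the software. The equal array medians of 150 show a common scaling. No detection call was used. Precision is limited by the number of arrays, and p-values measure the spread between samples that the labels call biological replicates.

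Intensities were transformed to log2(intensity + 1). The platform table pairs 34945 probe sets with 1 gene, 932 with several and 9160 with none, besides 64 controls; those of several genes were not used. Gene identifiers of 34741 probe sets were found in RefSeq GRCm38.p6, which changed 0 symbols. For each of 18193 genes the probe set of the highest mean log2 value over all samples was kept. Groups follow the sample titles. Hmga2 KO and wild type were compared by limma 3.58.1 (lmFit, eBayes; R 4.3.3) without covariates, and p-values were adjusted over all genes by Benjamini-Hochberg, with 0.05 as the threshold. The sexes within Hmga2 KO were compared in a fit of 3 groups. The fit was tested on simulated data. Start site windows are RefSeq's (GRCm38.p6, 250 bases before to 50 after the start site).

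The listed genes, the further gene lists and the markers were chosen with earlier results of these data known. Values per sample are given for the 3 highest and 3 lowest differences, Clybl and the 5 regulators, besides Pcx and Esrrg, which were added after their values were seen. Of each further list the 3 genes with the smallest p are named, and of each marker list the 2 brightest. Alternatives were females alone, sex as a covariate, a replicate block, leaving out samples, quantile normalization, a filter on the dimmest 40% of genes, a gene's mean or most variable probe set, a pseudocount of 16, a trended and robust prior, array weights, and a fit of the Hmga2 KO samples only.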

Additional observations from a re-analysis of the deposited data

Results flagged for a closer look

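Of the 42 genes, 5 had 1 Hmga2 KO sample that stood apart from the other 3, its gap to the nearest sample taking more of the group's log2 range than Dixon's 95% critical value for 4 samples. Chance flags about 1 in 20 groups. Hmga2 KO replicate 2, a female sample, was the high one for Idh2 (11.63), Cpt2 (9.33) and Acadvl (10.96). Hmga2 KO replicate 3 was the low one for Acads (8.33), and Hmga2 KO replicate 4 for Tfam (11.22).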

How the results depend on the processing

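The median of the 42 genes relative to all genes was -0.22 and lay between -0.14 (sex as a covariate, or females alone) and -0.28 (without Hmga2 KO replicate 2) under the alternatives; leaving out single samples gave -0.28 to -0.16. The 19 genes lower at an unadjusted p under 0.05 became 4 with sex as a covariate and 4 in females alone, and 8 to 24 when single samples were left out. The 1 higher gene, Cpt1a, became 0 with sex as a covariate, in females alone, with the replicate block, with the dimmest 40% left out, with the most variable probe set, and without replicate 2 of both groups (an alternative chosen after seeing the data, for their RNA integrity), and it was 0 to 1 when single samples were left out. The 0 genes past an adjusted p of 0.05 became 1, Clybl, with the replicate block (adjusted p 0.0353 in limma's fit), with the mean of probe sets (0.0474), with array weights (0.0436), and without Hmga2 KO replicate 2 (leaving out single samples gave 0 to 1). Over all alternatives its adjusted p ran from 0.0339 to 0.405, and its difference from -1.02 to -0.80. With the replicate block the count over all genes went to 99, against 5 without it, and 19 of the listed genes stayed lower at an unadjusted p under 0.05. The numbers were not taken to pair the samples in the main fit. Correlations of deviations from the group means were 0.31, 0.37 and -0.18 for same-numbered replicates 1, 2 and 3. Those of differently numbered samples ran from -0.40 to 0.18, so numbers 1 and 2 gave the highest values. Whether the numbers pair the samples is therefore not settled. The sign of the difference turned under at least 1 alternative for 9 genes: Cs, Pcx, Slc25a20, Hadha, Hadh, Acaa2, Etfdh, Nrf1 and Tfam. The cause of these shifts was not tested. For male against female Hmga2 KO samples, 28 to 39 genes were lower in males and 0 passed an adjusted p of 0.05 under each alternative. Where 1 Hmga2 KO sample was left out, 1 sex had a lone sample, assumed to vary like the others. With no detection call, signal over background could not be judged for dim genes such as Bdh1.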
